A study of Homo sapiens with 6 samples.

Results

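IL24 and its receptor family were examined in MDA-MB-231 cells, a human TNBC cell line, and in ADRr cells derived from them. The set holds 7 of the 58735 genes in the count table. They are the cytokine IL24, its chromosome 1 relatives IL19, IL20 and IL10, and the receptor chains IL20RA, IL20RB and IL22RA1. The set was chosen by the rise of IL24 in ADRr cells, which is among the largest at high counts, so the counts of IL24 are described here with no test. The other 6 genes were taken for their family, whatever their level. The parent cells (3 libraries, genotype labelled WT) and the ADRr cells (3 libraries, labelled ADR resistant) were both grown in DMEM with FBS. According to the methods, ADRr cells were selected in rising doses of ADR (Adriamycin, doxorubicin) and resistant clones were then isolated by limiting dilution. Whether the sequenced ADRr cells are 1 clone is not given in the sources used here. The dose of ADR at harvest, if any, and the age of the cultures are not given in the sources used here. The labels do not say that the libraries of a group came from separate cultures, so p-values measure only the spread between libraries, which may be technical.

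The IL-20 subfamily consists of small secreted cytokines related to IL-10. IL19, IL20 and IL24 bind a receptor made of IL20RA and IL20RB, and IL20 and IL24 also bind one made of IL22RA1 and IL20RB, so that IL20RB is shared by both. IL-10 itself uses IL10RA and IL10RB. These receptors signal through JAK kinases, mainly to STAT3, and are best known in skin and other epithelia during wound repair and inflammation. IL24 was first described as a gene induced during melanoma differentiation, and its forced expression slows the growth of many tumour lines and induces ER stress.

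The start regions of the members that carry the comparison are shown first. They are RefSeq windows on GRCh38.p14, 250 bases before to 50 bases after an annotated start, read 5′ to 3′ on the gene's strand. Capitals mark exact matches, on either strand, to AP-1 (TGANTCA), STAT (TTCNNNGAA), an NF-κB consensus or the TATA box (TATAAA). The IL24 window (chr1:206897193-206897492, + strand) and the IL20RB window (chr3:136957733-136958032, + strand) hold none of these letters. IL20 has 2 windows, of which the printed one (chr1:206863315-206863614, + strand) holds a TATA box and the other (chr1:206865373-206865672), nearer the start of the counted gene, holds no match, and the IL22RA1 window (chr1:24143091-24143390, - strand) an AP-1 and an NF-κB match.

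IL24: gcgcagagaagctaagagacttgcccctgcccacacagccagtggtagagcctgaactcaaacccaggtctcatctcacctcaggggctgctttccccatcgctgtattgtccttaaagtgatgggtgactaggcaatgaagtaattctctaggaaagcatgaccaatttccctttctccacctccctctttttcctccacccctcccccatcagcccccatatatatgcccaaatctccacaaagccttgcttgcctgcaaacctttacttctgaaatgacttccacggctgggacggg
IL20RB: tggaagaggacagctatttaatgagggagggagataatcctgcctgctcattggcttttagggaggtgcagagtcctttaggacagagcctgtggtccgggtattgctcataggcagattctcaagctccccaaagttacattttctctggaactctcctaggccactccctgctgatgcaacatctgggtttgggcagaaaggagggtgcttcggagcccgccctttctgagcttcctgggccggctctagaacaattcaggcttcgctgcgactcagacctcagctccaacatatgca
IL20: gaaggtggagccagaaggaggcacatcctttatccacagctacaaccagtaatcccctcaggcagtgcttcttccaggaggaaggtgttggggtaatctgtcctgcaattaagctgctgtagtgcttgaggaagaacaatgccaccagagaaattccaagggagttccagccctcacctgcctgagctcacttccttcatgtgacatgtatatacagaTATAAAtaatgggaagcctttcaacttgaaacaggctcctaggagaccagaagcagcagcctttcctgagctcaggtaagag
IL22RA1: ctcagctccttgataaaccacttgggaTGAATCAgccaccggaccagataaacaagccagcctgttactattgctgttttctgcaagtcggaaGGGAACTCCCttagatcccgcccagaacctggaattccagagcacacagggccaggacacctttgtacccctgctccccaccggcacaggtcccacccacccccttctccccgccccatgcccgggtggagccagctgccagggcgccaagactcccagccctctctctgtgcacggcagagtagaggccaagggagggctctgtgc

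The TATA box of IL20 spans bases -32 to -27 from its start. In IL22RA1 the AP-1 match spans -223 to -217 and the NF-κB match -157 to -148. All 7 members matched an entry of the promoter table, several with more than 1 start. A TATA box was also matched in a window of IL10 (-30 to -25) and of IL20RA (-32 to -27), an AP-1 match in a window of IL19 (-107 to -101) and of IL10 (-69 to -63), and a STAT match in a window of IL19 (-217 to -209). The AP-1 matches of IL19 and IL10 are the same bases, read on opposite strands from windows that overlap. Among all 35116 promoter windows, AP-1 was matched in 7.71%, STAT in 7.66%, the NF-κB consensus in 5.91% and the TATA box in 11.5%. Such matches describe the letters alone, and a window without one says nothing about the factors.

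Cytokine transcripts often carry AU-rich elements behind the stop codon, whose core is the pentamer ATTTA. In the GENCODE 29 transcript with the longest coding sequence, IL24 has 3 ATTTA in 421 bases after the stop codon, IL20 has 8 in 659, IL10 has 8 in 1034, IL20RA has 7 in 1587 and IL19 has 1 in 359. IL20RB, with 862 such bases, and IL22RA1, with 1034, have none. At least as many pentamers were found in 8.82% of the genes within 20% of IL24 in that length, and in 0.353% and 2.08% of the genes like IL20 and IL10 in length. At least 1 was found in 71.7% of the genes like IL20RB and in 75.0% of those like IL22RA1. The densest 30 bases of the ligands are printed with the pentamers in capitals. They lie at chr1:206903279-206903308 (IL24, + strand), chr1:206868799-206868828 (IL20, + strand) and chr1:206768459-206768488 (IL10, - strand).

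IL24: cttgtATTTAttacaactctATTTAattaa
IL20: tatATTTAttagttaatatATTTATTTAtt
IL10: cccccatttctATTTATTTActgagcttct

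IL24 (ENSG00000162892, GRCh38 chromosome 1, 206897443 to 206904139, + strand, 1979 exonic bases) gave 138, 161 and 150 counts in the parent libraries and 18303, 16656 and 17849 in the ADRr libraries. Here and below, values of a group stand in the order of replicates 1 to 3. No parent library came near an ADRr library. Per length, the values were 4.12, 5.03 and 4.21 FPKM (fragments scaled by exonic length and library size) in parent cells and 505, 504 and 484 in ADRr cells. After TMM scaling, which brings the libraries to a common size, the mean was 154 ± 17.5 (SD, n = 3) normalized counts in parent cells and 17170 ± 436 (SD, n = 3) in ADRr cells. The log2 fold change was 6.80 (SE 0.072), or 112-fold. IL24 rose from 0.000823 to 0.00101% of all counts in a parent library to 0.0977 to 0.103% in an ADRr library. Among protein-coding genes it ranked between 6936 and 7574 by FPKM in the parent libraries and between 30 and 33 in the ADRr libraries.

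Ranked by log2 fold change, IL24 was 9th of all 15242 tested genes. Of the 4822 genes whose higher group averaged 1000 normalized counts or more it was 2nd, after MMP1, and of the 235 that averaged 10000 or more it was 1st. These ranks describe the choice of the gene and are not a test of it.

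**Figure D1:**
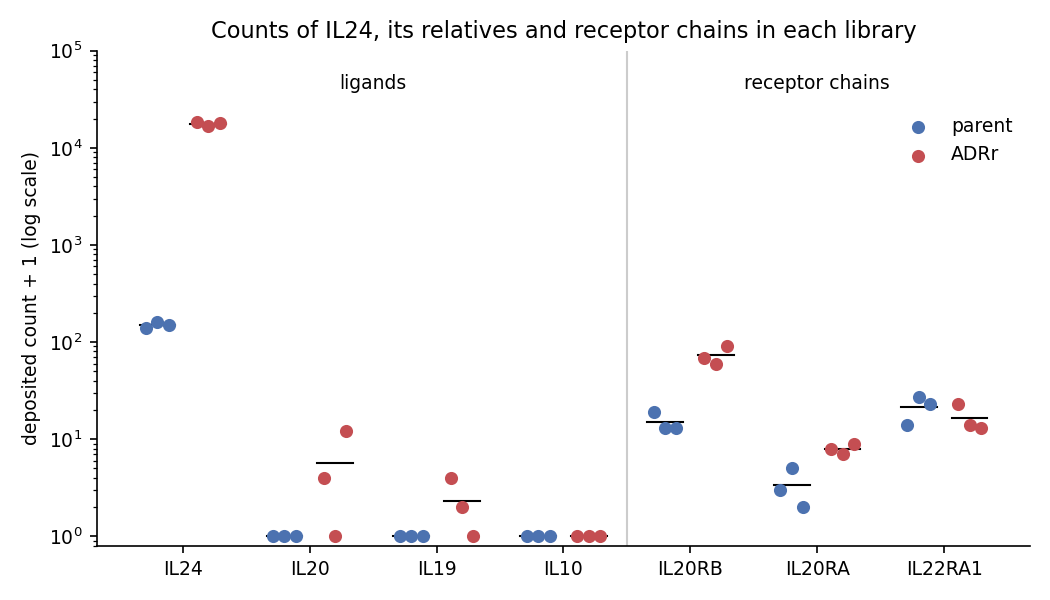
Deposited count plus 1 (log scale) of each of the 7 genes in the 3 parent libraries (blue) and the 3 ADRr libraries (red), with the group mean as a line. IL24 lies between 138 and 161 counts in parent cells and between 16656 and 18303 in ADRr cells, IL20RB is higher in all ADRr libraries, and IL10 is at 0 in all 6.

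The other ligands of the cluster were close to absent. IL20, a keratinocyte growth cytokine, had 0 counts in all 3 parent libraries and 3, 0 and 11 in ADRr replicates 1 to 3. The groups overlap, because ADRr replicate 2 also had 0. Over the group the limit that a count of 0 allows was set at 3 counts. Against that limit the ADRr sum of 14 counts, taken as exact, was 4.51-fold higher after library size. Without ADRr replicate 3 the sum of 3 counts lies at that limit and gives no fold. Leaving out any other library put this fold between 2.92 and 6.54. IL19, a relative made by monocytes and epithelia, had 0 counts in each parent library and 3, 1 and 0 in ADRr replicates 1 to 3, a sum of 4. IL10, the anti-inflammatory cytokine that gives the family its name, had 0 counts in all 6 libraries. In a single library a count of 0 allows up to 0.164 to 0.188 CPM (counts scaled by library size alone), so lower levels were not detectable at this depth.

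IL20RB, the receptor chain shared by both IL24 receptors (GRCh38 chromosome 3, 136946230 to 137011085, + strand), gave 18, 12 and 12 counts in the parent libraries and 67, 59 and 91 in the ADRr libraries. All ADRr libraries were above all parent libraries. The mean was 14.4 ± 3.63 (SD, n = 3) normalized counts in parent cells and 70.2 ± 12.9 (SD, n = 3) in ADRr cells. The log2 fold change was 2.28 (SE 0.286), or 4.86-fold with a 95% interval of 3.22 to 7.33, and IL20RB was called higher (edgeR adjusted p = 3.08e-07). A call needs an adjusted p no higher than 0.05 together with a change of 1.2-fold or more in either direction, and the adjustment runs over all 15242 genes that passed the filter on low counts. Of the tested members IL20RB and IL22RA1, IL20RB alone was called, with IL24 left out because its rise chose the set. Of all tested genes, 29.2% were called higher and 29.6% lower. All ADRr libraries lay above all parent libraries in 34.5% of tested genes, so IL20RB shares both properties with a large part of the genome. An exact permutation test of 3 against 3 libraries cannot go below 0.1 and was not used. Of the exonic bases of IL20RB, 4.16% are shared with NCK1 and an antisense gene, 2.67% on the same strand.

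IL22RA1, the chain that pairs with IL20RB in epithelial cells (GRCh38 chromosome 1, 24119771 to 24143121, - strand), gave 13, 26 and 22 counts in the parent libraries and 22, 13 and 12 in the ADRr libraries. The groups overlap. The log2 fold change was -0.45 (SE 0.39, edgeR adjusted p = 0.318), so IL22RA1 was not called. The 95% interval of the ratio of ADRr to parent cells ran from 0.417 to 1.28, so a fall or a rise past the 1.2-fold limit of a call and no change at all lie within it.

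IL20RA, the other partner of IL20RB (GRCh38 chromosome 6, 136999971 to 137045180, - strand), did not pass the filter. It gave 2, 4 and 1 counts in the parent libraries and 7, 6 and 8 in the ADRr libraries, with no overlap between the groups. The ratio of the summed counts, 21 against 7, was 2.9 after library size, with an exact 95% interval of 1.19 to 8.08 that covers counting error only. Leaving out parent replicate 2 moved the ratio to 4.63, and leaving out any other library kept it between 2.19 and 3. Of the 7 genes, 3 passed the filter (IL24, IL20RB and IL22RA1) and 4 did not (IL19, IL20, IL10 and IL20RA), so counts over the tested members do not speak for the whole family. In bulk RNA, fewer cells that make a transcript and less RNA per cell cannot be told apart, which holds for every value given here.

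Levels of different genes were compared per length. In parent cells the order of mean FPKM was IL24 at 4.45, IL22RA1 at 0.428, IL20RB at 0.333 and IL20RA at 0.0297, with the remaining ligands at 0. The libraries of IL22RA1 and IL20RB overlapped, while those of IL24 stood clear above them and those of IL20RA below them. The 2, 4 and 1 counts of IL20RA are near or under the 3 counts that a 0 allows. Its place above the ligands at 0 is therefore not resolved. In ADRr cells the order was IL24 at 498, IL20RB at 1.63, IL22RA1 at 0.313, IL20 at 0.161, IL20RA at 0.0825 and IL19 at 0.0288, with IL10 at 0. IL20RB then stood clear of IL22RA1, whereas IL22RA1 and IL20 overlapped, as did IL20 and IL20RA.

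The ligand thus exceeded its shared receptor chain in every library. The ratio of IL24 to IL20RB in FPKM was 9.58, 16.8 and 15.6 in parent replicates 1 to 3 and 341, 353 and 245 in ADRr replicates 1 to 3. The ratio of IL20RB to IL22RA1 in FPKM was 1.57, 0.522 and 0.617 in parent cells and 3.45, 5.14 and 8.58 in ADRr cells. IL20RB was thus below IL22RA1 in parent replicates 2 and 3, and above it in parent replicate 1 and in all ADRr libraries.

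Other cytokines of the same receptor class were next examined, from lists written with earlier results of these data known. Of 6 further ligands (IL22, IL26 and the type III interferons IFNL1 to IFNL4), only IFNL1, an antiviral cytokine, passed the filter, and it did so through the ADRr libraries alone. IFNL1 gave 3, 0 and 0 counts in the parent libraries and 35, 25 and 45 in the ADRr libraries. The ratio of summed counts was 33.9, with an exact 95% interval of 11.3 to 167 for counting error. Without parent replicate 1 the parent sum was 0, and the ADRr sum, taken as exact, was 22.6-fold above the limit of 3 counts. The ratio was 23.2 without parent replicate 2 and 21.9 without parent replicate 3. IFNL2 and IFNL3, near-identical copies whose reads cannot be assigned with certainty, had at most 3 counts in any library, and IL22, IL26 and IFNL4 had 0 in all 6.

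Of 9 other class II receptor chains, 7 were tested. Among these, 3 were called higher (42.9%), 1 was called lower (14.3%) and 3 were not called, beside 29.2% and 29.6% of all tested genes, with a median log2 fold change of 0.65 against -0.006 over all tested genes. The 3 called higher, IL10RB, IFNAR1 and IFNGR2, lie with IFNAR2 in the same stretch of chromosome 21, from base 33229901 to 33479348. The higher calls thus come from that stretch and not from across the receptor class. Whether their shared position bears on them was not tested. IL10RB, the second chain of the receptors for IL-10, IL-22 and type III interferons, gave 2, 6 and 14 counts in the parent libraries and 22, 26 and 17 in the ADRr libraries. All ADRr libraries were higher, and the log2 fold change was 1.49 (SE 0.483, edgeR adjusted p = 0.00977). On its parent libraries alone IL10RB would not have passed the filter, so its call is not independent of the rise. The call was lost without parent replicate 1 (1.04, adjusted p = 0.07) or ADRr replicate 2 (1.29, adjusted p = 0.057), and the change grew to 2.29 without parent replicate 3. Of the exonic bases of IL10RB, 38.1% are shared on the same strand with AP000295.1, a gene that also spans IFNAR2, so the counts of both receptor chains are uncertain. IFNAR2 itself was not called (0.65, SE 0.382, edgeR adjusted p = 0.139).

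IFNLR1, the ligand-specific chain of the type III interferon receptor, had 153, 158 and 174 counts in parent cells and 81, 93 and 115 in ADRr cells. It was called lower (log2 fold change -0.82, SE 0.151, edgeR adjusted p = 5.26e-05), so that it moved opposite to IFNL1. The chains IFNAR1 and IFNGR2, for type I and type II interferon, were called higher at log2 fold changes of 0.72 and 0.69. IL10RA, the IL-10-specific chain, did not pass the filter, with 2, 3 and 0 counts in parent cells and 8, 4 and 15 in ADRr cells.

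The kinases and transcription factors behind these receptors were all tested. Of 9 JAK and STAT genes, 4 were called higher (44.4%), 2 lower (22.2%) and 3 were not called, beside 29.2% and 29.6% of all tested genes, with a median log2 fold change of 0.32. JAK3, the kinase of lymphoid cytokine receptors, gave 26, 44 and 40 counts in the parent libraries and 17, 10 and 11 in the ADRr libraries, with no overlap between the groups. Its log2 fold change was -1.60 (SE 0.355, edgeR adjusted p = 0.000411), and it was not called with limma-trend on log2(FPKM + 1) without a filter (-0.25). The other members are named after their values were seen. JAK1, the kinase bound to the ligand-specific chains, was called higher at 0.32 (SE 0.056), and TYK2, another family kinase, lower at -0.67 (SE 0.0621). STAT3, the main target of this receptor class, had 2679, 2407 and 2849 counts in parent cells and 3931, 3470 and 4130 in ADRr cells. It was called higher at 0.46 (SE 0.0521, edgeR adjusted p = 5.31e-08). STAT2 was called higher at 0.91 and STAT5A at 0.55, while STAT5B was not called. JAK2 was not called at 0.38 (edgeR adjusted p = 0.061), but passed without parent replicate 3 (adjusted p = 0.031) or ADRr replicate 1 (adjusted p = 0.026), and with library size alone as the scaling (adjusted p = 0.045).

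**Figure D2:**
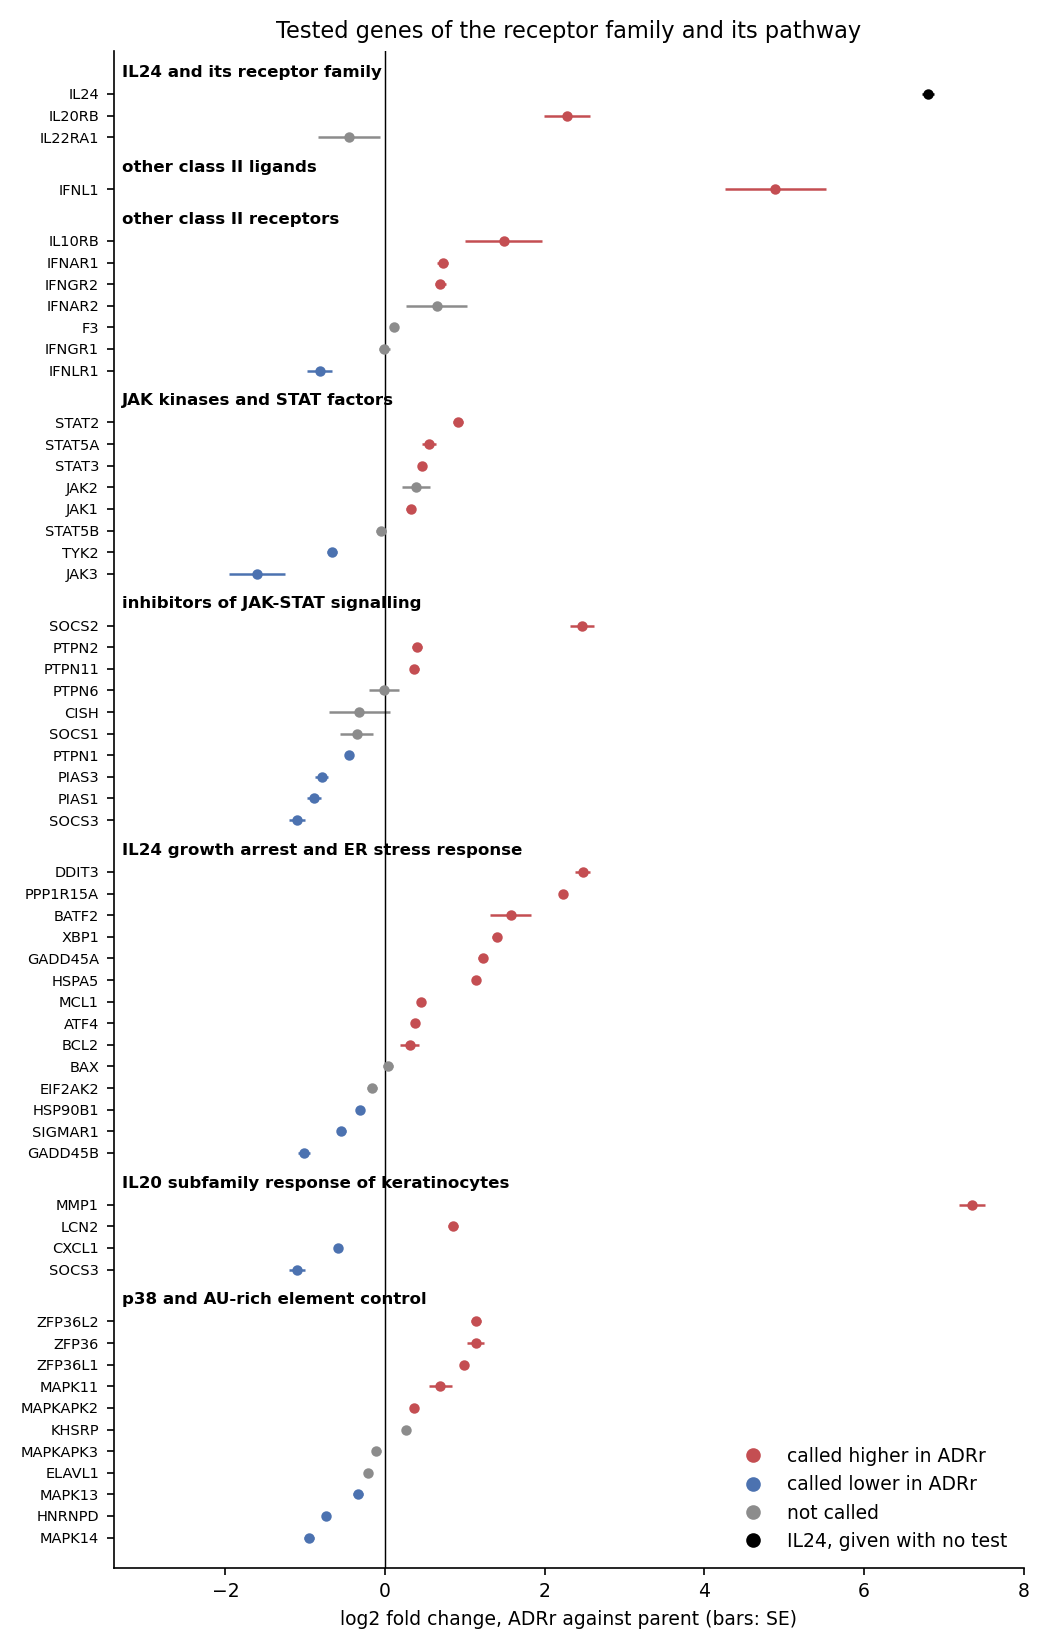
Log2 fold change, ADRr against parent cells (x axis, bars show the SE), of the tested genes reported here from the receptor family and 7 pathway lists, in red where called higher, blue where called lower, grey where not called, and black for IL24. IL24 at 6.80 and MMP1 at 7.35 lie furthest to the right, followed by IFNL1 at 4.89, and each list of JAK-STAT components holds genes on both sides of 0.

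Among 10 inhibitors of JAK-STAT signalling, 3 were called higher, 4 lower and 3 were not called, about the shares of all tested genes (29.2% and 29.6%), with a median log2 fold change of -0.34. SOCS2, a feedback inhibitor of growth hormone signalling, gave 44, 48 and 40 counts in the parent libraries and 262, 232 and 276 in the ADRr libraries. Its log2 fold change was 2.46 (SE 0.151, edgeR adjusted p = 1.89e-12). SOCS3, the feedback inhibitor induced by STAT3, had 546, 466 and 608 counts in parent cells and 253, 261 and 278 in ADRr cells. Its log2 fold change was -1.10 (SE 0.0948, edgeR adjusted p = 7.21e-10), opposite in sign to that of STAT3. In both genes the groups did not overlap.

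Genes that IL-20 subfamily cytokines are known to induce in keratinocytes were mostly silent. Of 13 such genes, 4 were tested, 2 of them called higher and 2 lower, beside 29.2% and 29.6% of all tested genes. MMP1, an interstitial collagenase, gave 17, 2 and 15 counts in the parent libraries and 2077, 1812 and 2025 in the ADRr libraries, a log2 fold change of 7.35 (SE 0.161, edgeR adjusted p = 2.95e-20). On its parent libraries alone MMP1 would not have passed the filter, so its call is not independent of the rise. LCN2, an iron-binding antimicrobial protein, was called higher at 0.85, and SOCS3 (above) and the chemokine CXCL1 lower at -1.10 and -0.58. The antimicrobial genes S100A7, S100A8, S100A9 and DEFB4A had at most 2 counts in any library. The elastase inhibitor gene PI3 gave 0, 0 and 1 counts in the parent libraries and 4, 7 and 9 in the ADRr libraries, and MMP3, a stromelysin, 4, 1 and 3 against 14, 8 and 19. Neither passed the filter, and in both the groups did not overlap. All ADRr libraries lay above all parent libraries in 34.5% of tested genes as well.

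Genes linked to growth arrest and ER stress after forced IL24 expression were examined next. Of 15 genes 14 were tested. Of these, 9 were called higher (64.3%), 3 lower (21.4%) and 2 were not called, beside 29.2% and 29.6% of all tested genes. The median log2 fold change was 0.41. The 9 called higher include MCL1 (0.45) and BCL2 (0.31), which inhibit apoptosis. The list thus joins genes of unlike action, and its shares do not measure a response to IL24. DDIT3, the ER stress factor CHOP, gave 159, 191 and 195 counts in the parent libraries and 1119, 991 and 1083 in the ADRr libraries, a log2 fold change of 2.47 (SE 0.0902, edgeR adjusted p = 1.9e-16). Of its exonic bases, 39.6% are shared with other genes, and 8.03% with a gene on the same strand. PPP1R15A, which restores translation after stress, was called higher at 2.23 (SE 0.0466). HSPA5, the ER chaperone BiP, was called higher at 1.14 (SE 0.0448), and XBP1, a factor of the unfolded protein response, at 1.40 (SE 0.0577). GADD45A and GADD45B, both induced by stress and DNA damage, went apart, at 1.22 (SE 0.0568) and -1.02 (SE 0.0766). BATF2, an interferon-induced factor, was called higher at 1.57 (SE 0.254). HSP90B1, the ER paralogue of HSP90, was called lower at -0.32.

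The p38 kinases, which stabilise many cytokine transcripts, and proteins that bind AU-rich elements formed the last list. Of 11 tested genes, 5 were called higher (45.5%), 3 lower (27.3%) and 3 were not called, beside 29.2% and 29.6% of all tested genes, with a median log2 fold change of 0.26. ZFP36, which promotes decay of AU-rich transcripts, gave 191, 151 and 162 counts in the parent libraries and 383, 359 and 425 in the ADRr libraries, a log2 fold change of 1.14 (SE 0.109, edgeR adjusted p = 4.4e-09). Its paralogue ZFP36L2 was called higher at 1.14 (SE 0.0654). MAPK14, the main p38 kinase, was called lower at -0.95 and its substrate MAPKAPK2 higher at 0.37. Decay or stability of the IL24 transcript was not measured.

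Around IL24, 35 genes lie within 500 kb, and 13 of them passed the filter. Of these, 5 were called higher, 5 lower and 3 were not called, beside 29.2% and 29.6% of all tested genes, with a median log2 fold change of -0.23. FCMR, the Fc receptor for IgM, was the gene closest to IL24. It lies on the opposite strand and its end is 246 bases beyond that of IL24. FCMR gave 149, 114 and 145 counts in the parent libraries and 542, 545 and 606 in the ADRr libraries, a log2 fold change of 1.98 (SE 0.105, edgeR adjusted p = 1.56e-13). All ADRr libraries were above all parent libraries. The annotated exons of the genes do not overlap, and the strandedness of the counting is not given in the sources used here. Whether reads from beyond the end of IL24 entered the count of FCMR was not tested.

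The other genes called higher near IL24 were DYRK3 (log2 fold change 0.69), MAPKAPK2 (0.37), CD55 (0.31) and EIF2D (0.27, a call lost without parent replicate 1 or 2). Those called lower were C1orf147 (-1.43, an antisense gene whose reads may not be told apart from those of the other strand), RASSF5 (-1.01), C4BPB (-0.67), IKBKE (-0.55) and SRGAP2 (-0.40). PFKFB2 (-0.23), YOD1 (-0.24) and C1orf116 (0.19) were not called, though PFKFB2 passed without ADRr replicate 1, and YOD1 without parent replicate 3 or ADRr replicate 3. Between IL10 and FCMR no gene besides IL24 passed the filter, and PIGR, the next gene with a known product, had at most 8 counts in any library. Besides IL24, the largest absolute log2 fold change of a tested gene within 500 kb was that of FCMR, at 1.98. Under the alternatives FCMR ranged from 1.72 to 2.05.

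**Figure D3:**
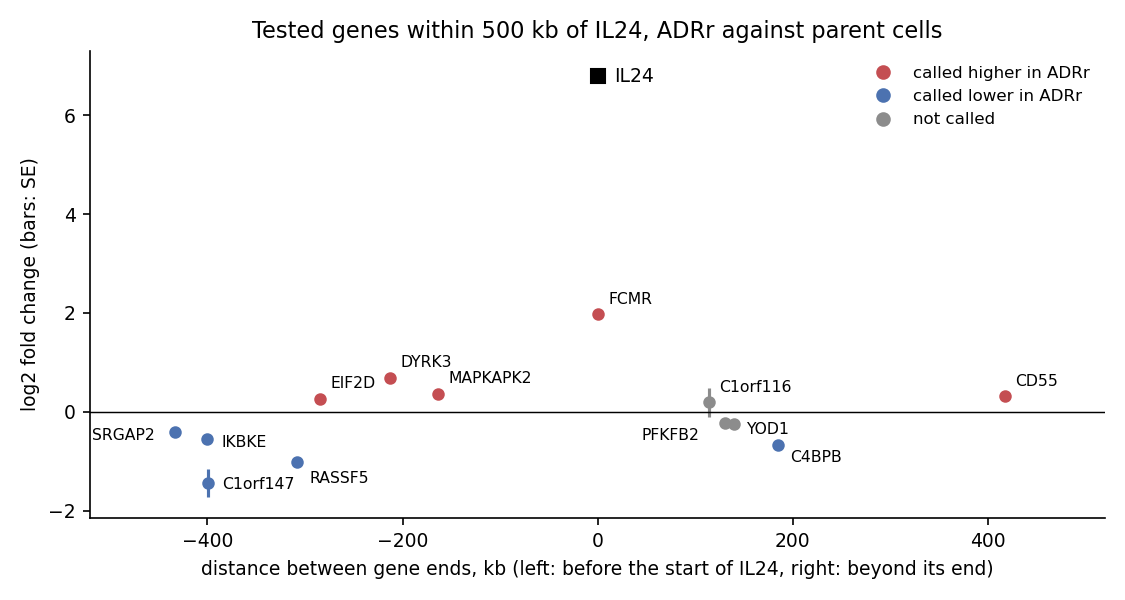
Log2 fold change (bars show the SE) of the 13 tested genes within 500 kb of IL24 (circles) and of IL24 itself (square), against the distance between gene ends in kb. FCMR at 1.98 is 246 bases away, and the remaining genes lie between -1.43 and 0.69.

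The receptor genes sit elsewhere. Next to IL20RB, NCK1, an adaptor gene that overlaps it on the same strand, was called higher at a log2 fold change of 0.51 (SE 0.0847), and on its other side within 500 kb the table lists only IL20RB-AS1, at 0 counts in all 6 libraries and not tested. Around IL20RA, the nearest called gene was MAP7, 449151 bases away, at -1.13 (SE 0.22). The other tested genes within 500 kb, among them IFNGR1 at -0.01, lie nearer and were not called. Next to IL22RA1, IFNLR1 (-0.82) lies 11035 bases away, and SRSF10, a splicing factor gene 138843 bases away on the other side, was called lower at -0.64 (SE 0.0538).

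The genes whose pattern was most like that of IL24 were found by the Euclidean distance between centred log2 CPM values over the 6 libraries, among the 11222 other tested genes whose higher group averaged 100 normalized counts or more. They were F2RL3, a thrombin receptor, at a distance of 1.57, IL1A, a pro-inflammatory cytokine, at 1.92, GMFG at 2.01, MUC4, a membrane mucin, at 2.07 and MMP1 at 2.11. IL1A had 348 ± 66.9 (SD, n = 3) normalized counts in parent cells and 13040 ± 379 (SD, n = 3) in ADRr cells, a log2 fold change of 5.23. MUC4 had 12.3 ± 2.7 (SD, n = 3) and 510 ± 55.7 (SD, n = 3). F2RL3 and GMFG averaged 2.33 and 2.72 normalized counts in parent cells, so they passed the filter through the ADRr libraries alone. At such low parent counts their distances are uncertain. For IL20RB the nearest genes were TCP11L2 (0.331), PRKCE (0.458) and TMC8 (0.471), with log2 fold changes of 2.33, 2.07 and 2.09. For IL22RA1 they were SMN1 (0.435), RNPC3 (0.534) and COQ3 (0.545), of which SMN1 has a near-identical copy that can share its reads. With 2 groups of 3 libraries, this likeness reflects mostly the size of the difference between the groups.

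The labelled cell type was checked against its markers. Of 8 markers of MDA-MB-231 and basal breast cancer cells, 7 were tested. Of these, 1 was called higher (CD44, 14.3%) and 5 lower (71.4%), beside 29.2% and 29.6% of all tested genes. The largest change was that of KRT8, called lower. It had 10580 ± 692 (SD, n = 3) normalized counts in parent cells and 2638 ± 132 (SD, n = 3) in ADRr cells. CAV1 was called lower at a log2 fold change of -1.30. The summed level of the 8 markers was 5317 to 5431 CPM in parent libraries and 4191 to 4292 CPM in ADRr libraries. SPARC had at most 9 counts. The receptor genes ESR1 and PGR had at most 1 count in any library. The summed level of 15 leukocyte markers was 62.4 to 68.1 CPM in parent libraries and 97.0 to 104 CPM in ADRr libraries, most of it from LAPTM5. Of these markers, 7 had at most 3 counts in every library, among them the defining PTPRC, CD3E and MS4A1, the last at 0. Of the 4 tested, LAPTM5 (log2 fold change 0.68) and CORO1A (1.27) were called higher and CSF1R (-1.31) lower. CD14, with 78 to 133 counts, was not called. The leukocyte calls thus go both ways, beside 29.2% called higher and 29.6% called lower of all tested genes. ITGAM gave 0, 0 and 0 counts in the parent libraries and 6, 6 and 7 in the ADRr libraries, and CD53 0, 0 and 0 against 4, 1 and 3. The part of these markers in the values of IL24 and its receptors was not tested. The 12 luminal and keratinocyte markers summed to 84.8 to 102 CPM in parent and 82.3 to 98.4 CPM in ADRr libraries, with KRT5, KRT1 and PGR at 0. Of the 5 tested, TP63 (log2 fold change 2.09) and EPCAM (1.10) were called higher, CDH1 (-1.07) and KRT10 (-0.45) lower, and GATA3, with 442 to 568 counts, was not called. These calls make 40.0% higher and 40.0% lower, beside 29.2% and 29.6% of all tested genes. TP63, with 5, 8 and 3 counts in the parent libraries, passed the filter through the ADRr libraries alone. Total counts per library ran from 15983985 to 18272314.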

How the data were processed

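RNA of 3 parent and 3 ADRr libraries was analysed. The methods name poly(A) selection, the CORALL kit, a NovaSeq run with paired ends, HISAT2 and featureCounts. The submitters' processing notes name fastp, HISAT2 2.0.5, featureCounts 1.5.0-p3 and DESeq2 1.20.0 on GRCh38. The strandedness is not given in the sources used here. The authors deposited raw counts, whole numbers that were not normalized, and also FPKM values, in which counts are divided by exonic length and library size. All 58735 genes carry the coordinates of GENCODE 29.

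In R 4.3.3, edgeR 4.0.16 was run on the counts. Genes kept by filterByExpr (15242) were scaled by TMM and tested with the quasi-likelihood test, with Benjamini-Hochberg adjustment over all of them. The other 43493 genes were not tested. The median SE of a log2 fold change was 0.0964, at a common biological variation of 0.0598. On simulated data with 200 changed genes of 15001, the test recovered 92% with 2.65% false calls. The simulation gave all genes the same variation, and its changes were fewer and mostly larger than those called here. Its rates therefore do not carry over to the calls made here. Total counts of 15983985 to 18272314 give a limit of 0.164 to 0.188 CPM at a count of 0. Limits and the intervals of summed counts cover counting error only, whereas the intervals of IL20RB and IL22RA1 come from the edgeR fit and include the spread between libraries.

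The members, the lists, the motifs and the alternatives were chosen with earlier results of these data known, and the count of ATTTA and the leave-one-out sums of the members under the filter after seeing the values. The rule named every member, genes of the pathway lists called with a log2 change of 1 or more in either direction (or the largest called change), tested genes within 500 kb of IL24, the nearest called neighbours of other members and the genes of nearest pattern. Genes named besides these, among them IFNAR1, IFNGR2, LCN2, CXCL1, HSP90B1, MAPK14, PI3, MMP3 and the markers, were chosen after their values were seen. Promoter sequences are RefSeq's. The alternatives were DESeq2's size factors, library size alone, DESeq2 1.42.0, other filters, limma-trend (limma 3.58.1) on log2(FPKM + 1) or log2(FPKM + 0.1), a replicate block, each library left out, other thresholds and other distances. A planned comparison of the members' proteins was not run. The counts over a list cover all of its genes, though some listed genes are not reported here. The libraries of a group differed by more than sampling noise (2.6 to 8.51 in a chi-square divided by its degrees of freedom), so none was counted as a repeat.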

Additional observations from a re-analysis of the deposited data

How the results depend on the processing

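The counts of genes called higher and lower, 4451 and 4507, stayed within 1.5 times under each alternative except a log2 change of 1.2 or more in either direction, which left 1114 and 972. The log2 fold change of IL24 was 6.52 with limma-trend on log2(FPKM + 1), with or without the filter, and 6.74 to 6.89 with 1 library left out. IL20RB was called higher under all 15 alternatives. Its change was 2.12 to 2.50 with 1 library left out and 0.97 on the log2(FPKM + 1) scale, which understates the change of low genes. IL22RA1 was not called under any of its 13 alternatives, at -0.74 to -0.20 with 1 library left out. The log2 ratio of IL20RA was 1.54 from summed counts, 1.45 in edgeR with no filter (adjusted p = 0.2), 1.49 in DESeq2 (adjusted p = 0.25) and 0.07 on the log2(FPKM + 1) scale with no filter. With no filter IL20 had an adjusted p of 0.011 in edgeR and 0.33 in DESeq2, and IL19 0.23 in edgeR.

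Near IL24, 3 genes were called higher and 1 lower of 7 tested within 250 kb. Within 1000 kb these were 5 and 10 of 18 tested, against 5 and 5 of 13 within 500 kb. Of all tested genes, 29.2% were called higher and 29.6% lower. With 1 library left out, the sign turned in 2 genes that were not called with all libraries, C1orf116 (-0.06 to 0.46) and SMN1 (-0.43 to 0.08). Of 784 values of 53 other genes under all alternatives, 757 kept direction and call, 17 lost the call, 7 gained one and 3 turned sign, all 3 with 1 library left out. Shared replicate numbers did not pair the libraries, since the deviations of same-numbered libraries correlated at 0.007, -0.021 and -0.046. With a replicate block the log2 fold changes of IL24, IL20RB and IL22RA1 were 6.80, 2.28 and -0.44, and 4406.0 and 4464.0 genes were called higher and lower. Library size limits what can be said of IL19, IL20, IL10 and IL20RA.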
